A study of Mus musculus with 20 samples.

Results

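The proteasome genes described here are the 50 of 25208 symbols in the gene-level count table that begin with Psm, followed by a letter from a to g and a digit. They comprise 7 alpha-ring subunits (Psma1 to Psma7), 7 constitutive beta-ring subunits (Psmb1 to Psmb7), 3 immunoproteasome subunits, 2 tissue-specific core subunits (the testis form Psma8 and the thymus form Psmb11), 9 base and 8 lid subunits, 6 activators and inhibitors, and 7 assembly chaperones. The last one, Psmc3ip, is a meiotic recombination factor that carries the symbol but is no subunit. All 50 were among the 16603 genes that passed the filter on low counts.

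The proteasome is the protease that breaks down proteins tagged with ubiquitin. Its 20S core is a barrel of alpha-ring subunits, which gate the entrance, and beta-ring subunits, which include the catalytic ones. A 19S cap sits on the core: its base holds a ring of ATPases that unfold substrates, and its lid holds the deubiquitinase that removes the ubiquitin tag. In immune settings the catalytic beta subunits can be replaced by Psmb8, Psmb9 and Psmb10 to give the immunoproteasome, and other activators (PA28 and PA200) can take the place of the cap. Dedicated chaperones build the core and the base. Early embryos clear proteins inherited from the egg while their own genome is switched on, and proteasome activity is known to be needed in that period.

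RNA was measured with Smart-seq2, a full-length method for very small samples, in 20 libraries of mouse preimplantation embryos, 2 in each of 10 groups. Wild-type control embryos and embryos with P300 knocked down by siRNA were collected at 4 stages: late 2-cell, then 4-cell, then early and finally late 8-cell. At the late 8-cell stage there were also P300 siRNA embryos with an I1394G rescue and P300 siRNA embryos with a NaCr rescue. P300, encoded by Ep300, is an acyltransferase of histones, and all embryos were cultured from the zygote in KSOM medium. The labels do not say what the controls received, what I1394G and NaCr stand for, how many embryos were pooled in a library, or whether the 2 libraries of a group came from separate collections, so p-values measure the spread between these libraries only. In such bulk samples fewer cells of a type and less RNA per cell cannot be told apart.

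Libraries held 3202332 to 24785201 counts, the shallowest being replicate 1 of the siRNA group at the late 8-cell stage. Levels below are CPM, counts scaled to a common library size with TMM factors, which correct for RNA composition, and changes are log2 fold changes from edgeR, called at an adjusted p below 0.05 over all 16603 genes. Ep300 itself stood at 86.1 and 83.8 CPM in the late 2-cell controls against 22.6 and 29.9 in the siRNA libraries, at 48.3 and 88.4 against 11.4 and 19.1 at the 4-cell stage, and at 41.5 and 82.9 against 11.7 and 16.4 at the early 8-cell stage. The fall was called at the 4-cell (log2 fold change -2.15 ± 0.37 (SE), edgeR adjusted p = 0.00128) and early 8-cell stage (-2.15, adjusted p = 0.000819), and missed the threshold at the late 2-cell stage (-1.69, adjusted p = 0.318). At the late 8-cell stage the controls themselves had 22.0 and 15.2 CPM, the siRNA libraries 16.2 and 13.2, the groups overlapped, and the difference was not called (-0.36, adjusted p = 0.5). The embryo markers listed for the label check summed to between 2743 and 14283 CPM in every library, markers of cumulus cells to at most 4.07 CPM and of sperm to at most 3.35 CPM.

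The proteasome genes took a small share of the control RNA at the late 2-cell stage and several times more from the 4-cell stage on. Their counts made up 0.416% and 0.414% of each control library at the late 2-cell stage, 1.68% and 1.43% at the 4-cell stage, 1.60% and 1.55% at the early 8-cell stage, and 2.2% and 2.3% at the late 8-cell stage. Between the late 2-cell and the 4-cell controls 38 of the 50 rose and 6 fell, where 61.2% of all genes were called (27% higher and 34.2% lower). The median change was 2.85 over the 50 and -0.40 over all genes on the log2 scale. With other scalings the all-gene median moved to -0.65 (DESeq2 size factors) or -0.80 (library totals), and 38 of the 50 were still called higher under each (24.1% and 22.2% of all genes).

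Every alpha and every constitutive beta subunit rose between these stages. Psma6, an alpha-ring subunit, had 63.6 and 68.0 CPM in the late 2-cell controls and 1309.8 and 1058 in the 4-cell controls (log2 fold change 4.17 ± 0.19 (SE), edgeR adjusted p = 2.48e-11). Psmb4, a non-catalytic beta subunit, went from 30.0 and 28.5 to 584 and 459 CPM (4.15, adjusted p = 1.18e-10). The libraries of the 2 stages lay far apart for both genes, and the 2 replicates of a stage lay much nearer to each other than to the other stage. The other alpha subunits rose by between 2.76 (Psma3) and 3.88 (Psma5), and the other beta subunits by between 2.83 (Psmb1) and 3.29 (Psmb5, the chymotrypsin-like catalytic subunit). Summed over the ring, alpha subunits went from 472 and 463 to 5952 and 4137 CPM and beta subunits from 378 and 421 to 4195 and 2913 CPM.

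The cap rose as well, but its subunits differed more among themselves. All 9 base subunits were called higher, from the ATPase Psmc4 (23.0 and 22.3 CPM, then 485 and 325; log2 fold change 4.16 ± 0.21 (SE), edgeR adjusted p = 3.77e-11) down to the scaffold subunit Psmd2 (77.2 and 82.2 CPM, then 174 and 142; 0.98, adjusted p = 0.000329). Of the 9, the ATPase Psmc3 (1.46), the ubiquitin receptor Psmd4 (1.44), the scaffold subunit Psmd1 (1.34) and Psmd2 were the ones below 2 on the log2 scale. In the lid, 7 of 8 rose, led by the deubiquitinase Psmd14 (28.6 and 45.9 CPM, then 757 and 609.8; 4.20, adjusted p = 9.75e-11). Psmd3, a structural lid subunit, was the exception: it had 198 and 178 CPM at the late 2-cell stage and 69.5 and 82.6 at the 4-cell stage, a fall by 1.30 (SE 0.19, edgeR adjusted p = 1.05e-05). Its libraries did not overlap between the stages.

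**Figure D1:**
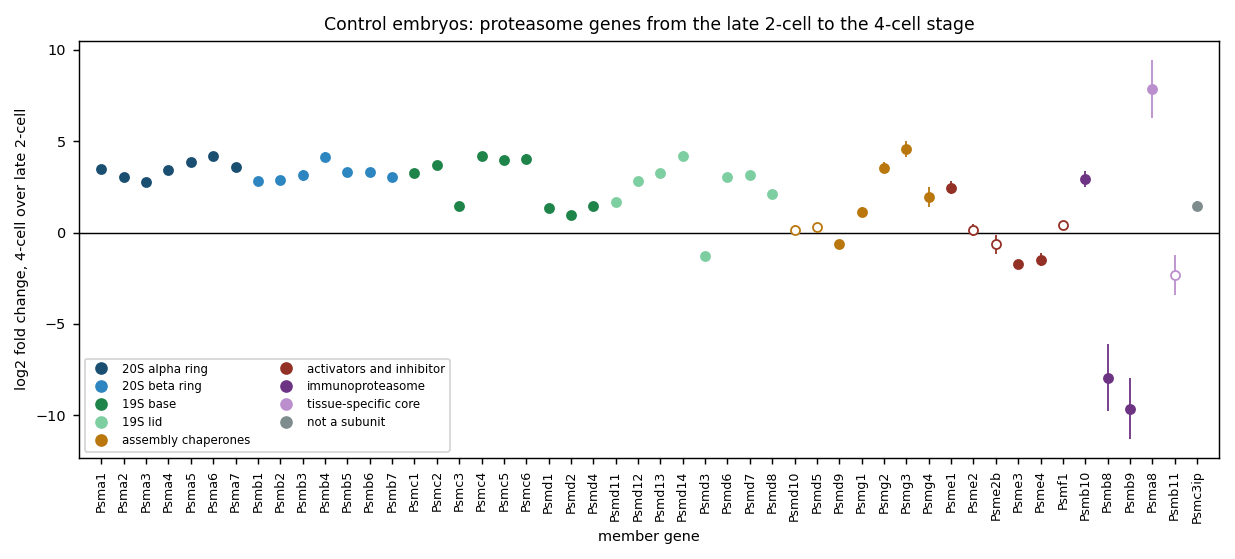
Log2 fold change of each proteasome gene from the late 2-cell to the 4-cell controls (edgeR), grouped by class, with bars for the SE. Filled points were called and open points were not: the core rings lie between 2.76 and 4.17, Psmd3 lies apart from the other lid subunits at -1.30, and the activators lie on both sides of 0.

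Activators and assembly chaperones did not move as one group. Psme4, which encodes PA200, an activator that binds the core without the cap, had 547 and 508 CPM in the late 2-cell controls and 139 and 238 in the 4-cell controls (log2 fold change -1.48 ± 0.35 (SE), edgeR adjusted p = 0.00147). Psme3, the nuclear PA28 subunit, went from 207 and 198 to 53.2 and 69.1 CPM (-1.73, adjusted p = 3.51e-06). Both were therefore higher before the core genes rose, and neither overlapped between the stages. The PA28 subunit Psme1 rose from 8.97 and 7.41 to 31.0 and 58.4 CPM (2.45, adjusted p = 1.02e-05). Its partner Psme2 (0.13, adjusted p = 0.75), the near-identical copy Psme2b (-0.65, adjusted p = 0.275), whose reads may be shared with Psme2, and the proteasome inhibitor Psmf1 (0.39, adjusted p = 0.132) were not called.

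Of the 7 chaperones, the 4 that assemble the core rose and those of the base did not. Psmg3 went from 3.23 and 3.03 to 73.7 and 73.9 CPM (log2 fold change 4.55 ± 0.43 (SE), edgeR adjusted p = 5.27e-08), the largest value among the chaperones. Psmg2 rose by 3.53, Psmg4 by 1.95 and Psmg1 by 1.13 (adjusted p = 1.41e-08, 0.00425 and 0.000688). Of the base chaperones, Psmd9 fell by 0.64 (adjusted p = 0.0259), a call that was lost without replicate 2 of the 4-cell controls or replicate 1 of the late 2-cell controls (range -0.89 to -0.38 without single libraries). Psmd5 (0.29, adjusted p = 0.231) and Psmd10 (0.15, adjusted p = 0.648) were not called. The other 43 calls were kept without each library in turn and under every alternative tried.

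Ratios within a library do not depend on the scaling. The summed base CPM was 0.703 and 0.674 of the summed core CPM in the late 2-cell controls, 0.399 and 0.441 at the 4-cell stage, 0.442 and 0.392 at the early 8-cell stage and 0.588 and 0.598 at the late 8-cell stage. For the lid the ratios were 0.945 and 0.966, then 0.413 and 0.587, 0.464 and 0.461 and 0.467 and 0.463. Cap RNA was thus highest relative to core RNA at the late 2-cell stage. Psmd3 supplied 24.7 and 20.8% of the lid CPM at the late 2-cell stage and 1.66 and 2.0% at the 4-cell stage. Psme4 stood at 64.4 and 57.5% of the core CPM in the late 2-cell controls and at 1.37 and 3.38% in the 4-cell controls. With 2 libraries a group these ratios have no test.

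**Figure D2:**
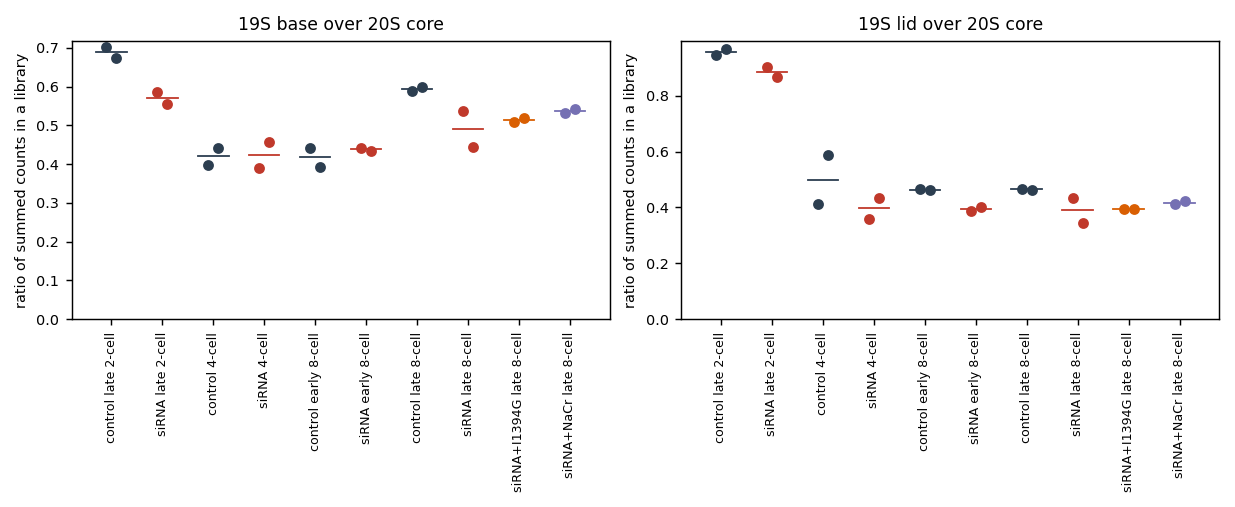
Summed CPM of the base and of the lid over the summed CPM of the core, by group. Points are libraries. The late 2-cell controls lie highest in each panel, and the base ratio of the late 8-cell controls (0.588 and 0.598) lies above that of the early 8-cell controls (0.442 and 0.392).

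The promoters of the 5 genes at the extremes of this change are given for comparison: the 2 that fell most and the 3 that rose most among called genes with exactly 1 promoter window and at least 10 CPM. Psma6, which rose more than Psmc4, has more than 1 window and was left out for that reason. The windows run from 250 bases before to 50 bases after the start in the RefSeq annotation of GRCm38.p6, a later build than the mm9 that the submitters' processing notes name, and they serve here for sequence only. They are chr11:101315963-101316262 on the plus strand for Psme3, chr11:30771525-30771824 (plus) for Psme4, chr5:139826845-139827144 (minus) for Psmg3, chr2:61711444-61711743 (plus) for Psmd14 and chr7:28050043-28050342 (minus) for Psmc4. Sequences read along the gene, and capitals mark the core motif of ETS factors, CCGGAAG, on either strand.
Psme3: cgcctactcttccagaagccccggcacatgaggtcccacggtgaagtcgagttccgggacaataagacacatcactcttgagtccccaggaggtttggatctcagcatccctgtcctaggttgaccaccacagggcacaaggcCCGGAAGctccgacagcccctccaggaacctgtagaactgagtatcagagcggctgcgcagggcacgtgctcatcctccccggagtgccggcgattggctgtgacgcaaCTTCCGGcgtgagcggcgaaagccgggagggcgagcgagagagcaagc
Psme4: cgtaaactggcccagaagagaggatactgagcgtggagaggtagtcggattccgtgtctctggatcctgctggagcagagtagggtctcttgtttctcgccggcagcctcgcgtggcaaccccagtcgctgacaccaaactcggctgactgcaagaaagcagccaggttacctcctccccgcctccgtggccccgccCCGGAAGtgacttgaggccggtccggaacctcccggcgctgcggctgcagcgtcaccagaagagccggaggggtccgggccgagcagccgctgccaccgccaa
Psmg3: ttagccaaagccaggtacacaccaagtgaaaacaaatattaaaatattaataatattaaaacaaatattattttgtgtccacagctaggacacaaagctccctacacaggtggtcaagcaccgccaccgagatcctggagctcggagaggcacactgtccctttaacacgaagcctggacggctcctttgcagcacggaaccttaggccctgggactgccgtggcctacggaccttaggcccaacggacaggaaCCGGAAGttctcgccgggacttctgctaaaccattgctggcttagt
Psmd14: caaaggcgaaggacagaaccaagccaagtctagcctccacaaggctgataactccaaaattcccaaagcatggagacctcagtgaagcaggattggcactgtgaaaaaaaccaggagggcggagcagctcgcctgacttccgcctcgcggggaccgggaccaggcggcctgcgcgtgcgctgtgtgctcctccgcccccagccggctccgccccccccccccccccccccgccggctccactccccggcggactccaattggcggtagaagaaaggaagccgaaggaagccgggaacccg
Psmc4: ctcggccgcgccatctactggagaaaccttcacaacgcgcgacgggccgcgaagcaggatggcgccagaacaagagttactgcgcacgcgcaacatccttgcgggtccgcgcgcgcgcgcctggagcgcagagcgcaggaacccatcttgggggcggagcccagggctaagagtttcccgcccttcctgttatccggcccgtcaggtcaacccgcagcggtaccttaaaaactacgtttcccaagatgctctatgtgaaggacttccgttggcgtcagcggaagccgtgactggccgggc
The ETS core occurred 2 times in the window of Psme3 and 1 time each in those of Psme4 and Psmg3, so it was present in genes that fell and in a gene that rose. It was not found in the windows of Psmd14 and Psmc4.

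At least 1 such window was available here for 42 of the 50 genes and for 27018 genes in all. A gene was counted where any of its windows held the motif. The 8 genes without a window were Psma8, Psmb1, Psmb2, Psmb7, Psmc3, Psmd3, Psmd7 and Psmg2. The ETS core was found for 15 of the 42 genes (35.7%) and for 9.93% of all genes with a window. Among the classes it was found for 5 of 8 base genes, 4 of 6 lid genes, 1 of 7 alpha genes (Psma6) and 0 of 4 beta genes. The GC box GGGCGG was found for 54.8% of the 42 genes against 38.2% of all and the CCAAT box in 35.7% against 41.1%. TGACNNNGC, the core of the element through which Nfe2l1 is known to raise proteasome genes after proteasome inhibition, was found for 14.3% of the 42 and 14% of all genes. Both strands were searched, and 1 of the 21 ETS matches in these windows overlapped another motif. The 27018 genes were neither limited to genes expressed here nor matched for base content. The differences in share can therefore not be read as particular to proteasome genes. A match is only a run of letters, and binding was not measured.

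Between the 4-cell and the early 8-cell controls none of the 50 was called by edgeR, where 1.13% of all genes were. At an unadjusted p below 0.05 there were 2, and DESeq2 called 1. The median change was 0.09. From the early to the late 8-cell stage 22 of the 50 rose and none fell, where 26.2% of all genes were called and 15% rose. The median was 0.62 over the 50 and 0.11 over all genes. Without replicate 2 of the early 8-cell controls 13 calls were left.

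The second rise was most complete in the base, where 9 of 9 subunits were called. Psmd2 had 150.1 and 165 CPM in the early 8-cell controls and 538 and 554 in the late 8-cell controls (log2 fold change 1.79 ± 0.20 (SE), edgeR adjusted p = 1.26e-05). Psmc3 had 134 and 135 and then 394 and 462 CPM (1.66, adjusted p = 1.61e-05). Both base genes more than tripled here, and their libraries did not overlap. In the lid 4 of 8 rose, among them Psmd3 from 100.4 and 101 to 212 and 201 CPM (1.04, adjusted p = 0.000663) and Psmd8, a structural subunit, from 501 and 451 to 891 and 974 CPM (0.97, adjusted p = 0.000416).

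In the core 3 of 7 alpha subunits rose, with Psma1 at 1.02, Psma4 at 0.87 and Psma5 at 0.79, and 2 of 7 beta subunits, Psmb5 (0.93) and Psmb3 (0.75). Psma6, by contrast, had 1230.1 and 1194 CPM before and 1309 and 1294 after. Among the chaperones Psmg2 rose by 1.72 (adjusted p = 0.000197), Psmd10, the base chaperone also known as gankyrin, by 1.26 (adjusted p = 0.00183) and Psmg1 by 0.96 (adjusted p = 0.00735). Psme3 was the called activator (0.83, adjusted p = 0.0114). The calls of Psmb3, Psmb5, Psmc5, Psmd1, Psmd4, Psmd6, Psmd13, Psme3 and Psmg1 were each lost without at least replicate 2 of the early 8-cell controls; their values without single libraries stayed between 0.41 and 1.43.

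**Figure D3:**
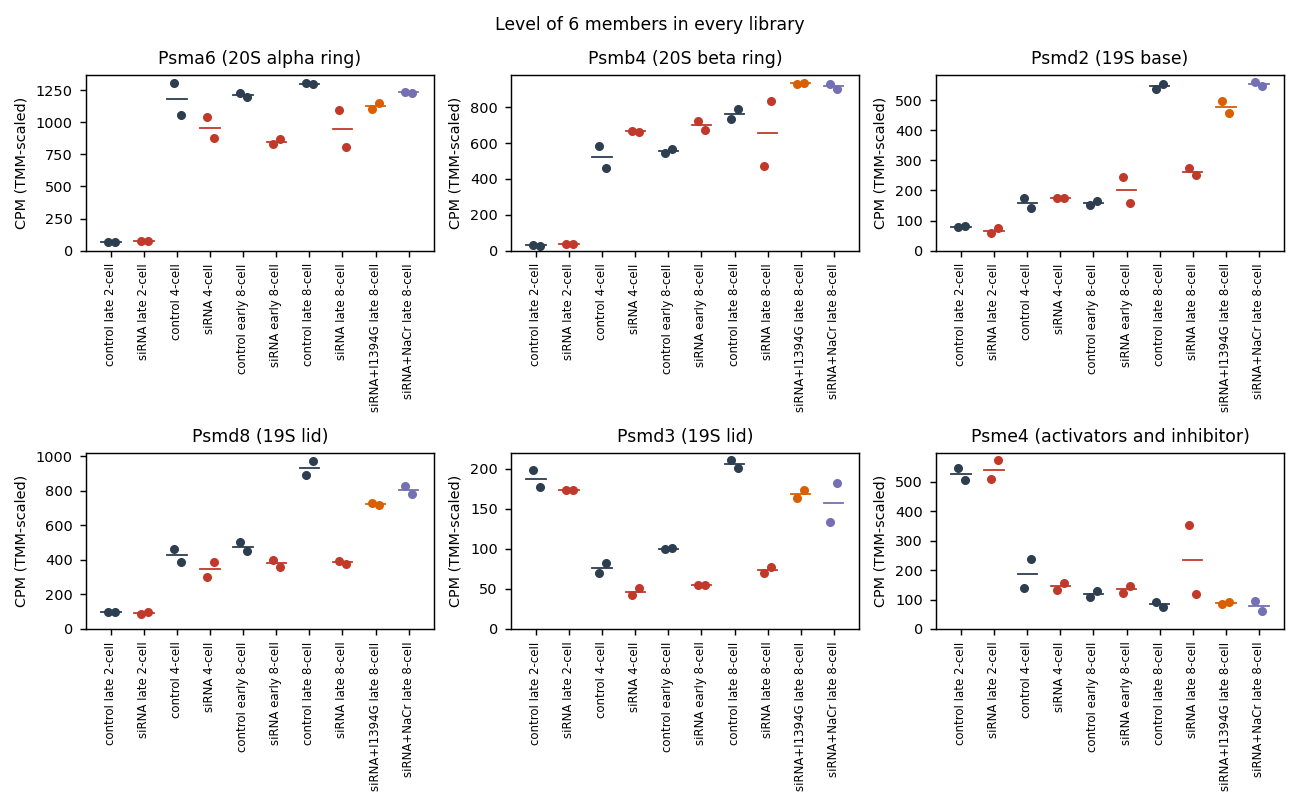
CPM of Psma6, Psmb4, Psmd2, Psmd8, Psmd3 and Psme4 in each of the 20 libraries (points) with the group mean (line), by stage and group. Psmd2 and Psmd8 are highest in the late 8-cell controls and rescue groups, Psmd3 and Psme4 start high at the late 2-cell stage, and 1 siRNA library at the late 8-cell stage stands apart for Psme4 (352 CPM).

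Levels can be set side by side between genes only per length, for which the deposited FPKM values (fragments scaled by transcript length and library size) were used. They include replicate 2 of the early 8-cell controls, whose FPKM did not match its counts. By the median over the 20 libraries, Psma2 (918) and Psma3 (293) were the highest and lowest alpha subunits, and Psmb2 (882) and Psmb5 (224) the highest and lowest beta subunits. In the base Psmc1 stood at 549 and Psmd2 at 58.4, and in the lid Psmd7 at 494 and Psmd3 at 48.7. The core subunits of a library lay within a factor of 3.17 to 6.71 of each other and the cap subunits within a factor of 7.16 to 31.6. The lowest cap subunit was Psmd13 in the late 2-cell libraries and Psmd3 in all other libraries. The chaperones ranged from 113 (Psmd5) to 20.7 (Psmg4), the activators and inhibitor from 53.3 (Psme1) to 3.42 (Psme2b) and the immunoproteasome subunits from 26.9 (Psmb10) to 0.09 (Psmb8). The tissue-specific Psma8 and Psmb11 stood at 1.58 and 0.395, and Psmc3ip at 69.4.

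P300 siRNA left the proteasome genes with no call at the late 2-cell stage. Of the 50, edgeR called 0, against 0.00602% of all genes (1 gene); 7 of the 50 and 689 genes in all had an unadjusted p below 0.05, and DESeq2 called 1 of the 50. The median change was 0.09 over the 50 and -0.04 over all genes. Psma6, for example, had 78.1 and 77.0 CPM in the siRNA libraries and 63.6 and 68.0 in the controls.

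At the 4-cell stage 5 of the 50 were higher and 1 was lower in the siRNA libraries, where 15% of all genes were called (7.77% higher and 7.25% lower). The base chaperone Psmd10 had 70.4 and 52.0 CPM with siRNA and 25.4 and 18.2 in the controls (log2 fold change 1.49 ± 0.26 (SE), edgeR adjusted p = 0.00139). Psmc3 had 252 and 270.5 against 173 and 115 CPM (0.86, adjusted p = 0.006), and Psmd3 had 41.8 and 51.2 against 69.5 and 82.6 CPM (-0.71, adjusted p = 0.0184). The siRNA and control libraries did not overlap for these 3 genes. Psmg2 (1.0, adjusted p = 0.0175) and Psma1 (0.62, adjusted p = 0.0376) were also higher, as was Psmb9, from few counts.

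These 4-cell calls leaned on single libraries. The 2 control libraries differed, with summed alpha-ring levels of 5952 and 4137 CPM against 6249 and 5376 with siRNA. Without replicate 2 of the controls 1 call was left, that of Psmd10, without replicate 1 of the controls there were 14, and without replicate 1 of the siRNA group 3. A fit to these 4 libraries alone called 0, and with library totals 15 were higher and 0 lower (16% of all genes called, 11% higher and 4.95% lower). Without single libraries the value of Psmd10 ranged from 1.26 to 1.74, that of Psmg2 from 0.53 to 1.65, of Psmc3 from 0.59 to 1.18, of Psma1 from 0.37 to 0.91 and of Psmd3 from -0.87 to -0.57. Psmd10 is the only one of the 50 on the X chromosome, and Xist, the RNA that coats the inactive X, stood at 72.8 and 0.367 CPM in the 4-cell controls and at 87.3 and 73.4 CPM in the siRNA libraries; the part of this in the result was not tested.

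At the early 8-cell stage 2 of the 50 were higher and 2 lower, where 16.5% of all genes were called (8.21% higher and 8.3% lower). Psmc3 had 272 and 271 CPM with siRNA and 134 and 135 in the controls (log2 fold change 1.01 ± 0.19 (SE), edgeR adjusted p = 0.00149). Psmd3 had 54.4 and 55.4 against 100.4 and 101 CPM (-0.87, adjusted p = 0.00424). Both kept their call without each library in turn, and their libraries did not overlap. Psmd10 was higher (1.16, adjusted p = 0.00523; lost without replicate 2 of the controls or replicate 1 of the siRNA group, range 0.77 to 1.46), with Xist at 97.8 and 121 CPM in the controls and 92.5 and 80.9 with siRNA. Psma6 was lower (-0.51, adjusted p = 0.0433), a call lost without any 1 of the 4 libraries (range -0.55 to -0.48). Without replicate 2 of the controls, or replicate 1 of the siRNA group, 2 calls were left, and with library totals 12 were higher and 1 lower (19.3% of all genes called, 14.1% higher and 5.2% lower).

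At the late 8-cell stage 12 of the 50 were lower and 4 higher in the siRNA libraries, where 28% of all genes were called (14.3% lower and 13.6% higher). The base had 5 of 9 lower, the lid 3 of 8, the chaperones 3 of 7, the alpha ring 1 of 7 and the constitutive beta ring 0 of 7, while 3 of 6 activators and 1 of 3 immunoproteasome subunits were higher. The median change was -0.36 over the 50 and 0.06 over all genes. Both libraries of the siRNA group were below both controls for 34 of the 50, against 33.4% of all genes. Without replicate 2 of the controls 10 calls were left.

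The scaling decides the direction of the group as a whole here, since the TMM factors were 0.858 and 0.854 in the controls and 1.18 and 1.21 in the siRNA libraries. With DESeq2 size factors the medians were -0.22 over the 50 and 0.20 over all genes, and 10 were lower and 4 higher (27.4% of all genes called, 11.4% lower and 16% higher). With library totals and no scaling factor they were 0.12 and 0.54, and 4 were lower and 7 higher (29.7% called, 6.13% lower and 23.6% higher). Of the 50, 41 lay below the all-gene median, a count that a scaling, which shifts all genes nearly alike, leaves as it is. The proteasome share of all counts was 2.37% and 2.31% with siRNA and 2.2% and 2.3% in the controls. The falls of Psmd3, Psmg1, Psmd8 and Psmd2 and the rises of Psme2, Psme2b, Psme4 and Psmb8 were called under all 3.

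Psmd8 had 390.3 and 378 CPM with siRNA and 891 and 974 in the late 8-cell controls (log2 fold change -1.28 ± 0.17 (SE), edgeR adjusted p = 4.33e-05; -0.80, adjusted p = 0.00153, with library totals). Psmd3 had 69.8 and 77.4 against 212 and 201 CPM (-1.48, adjusted p = 3.59e-05; -1.0 with library totals). Psmd2 had 273 and 252 against 538 and 554 CPM (-1.05, adjusted p = 0.000824; -0.58, adjusted p = 0.0263, with library totals). For all 3 both siRNA libraries lay far below both controls. The core chaperone Psmg1 had 47.0 and 49.8 against 134 and 139.8 CPM (-1.50, adjusted p = 0.000306; -1.02 with library totals). For Psmd2, Psmd8 and Psmg1 the siRNA libraries lay nearer to the early 8-cell controls (150.1 and 165 CPM for Psmd2, 501 and 451 for Psmd8, 76.5 and 64.0 for Psmg1) than to the late ones.

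The other called falls were Psmc5 (-0.83), Psmc1 (-0.81) and Psmc4 (-0.77), which are base ATPases, the ubiquitin receptor Psmd4 (-0.55), the lid subunit Psmd6 (-0.82), the alpha subunit Psma4 (-0.85) and the core chaperones Psmg3 (-1.40) and Psmg2 (-0.80). With library totals none of these 8 was called. Psmg3 had 15.7 and 53.6 CPM with siRNA and 87.7 and 102 in the controls, so its 2 siRNA libraries differed, and its call was lost without replicate 2 of the controls (range -2.61 to -0.83). Psmc4 also lost its call without that library (range -0.87 to -0.67), Psmd4 without either control or replicate 1 of the siRNA group (range -0.72 to -0.42), and Psmg2 without any 1 of the 4 (range -0.88 to -0.73). In the constitutive beta ring, Psmb4 had 471 and 837 CPM with siRNA and 732 and 793 in the controls, and the groups overlapped. The base was 0.537 and 0.444 of the core CPM in the siRNA libraries, against 0.588 and 0.598 in the controls.

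**Figure D4:**
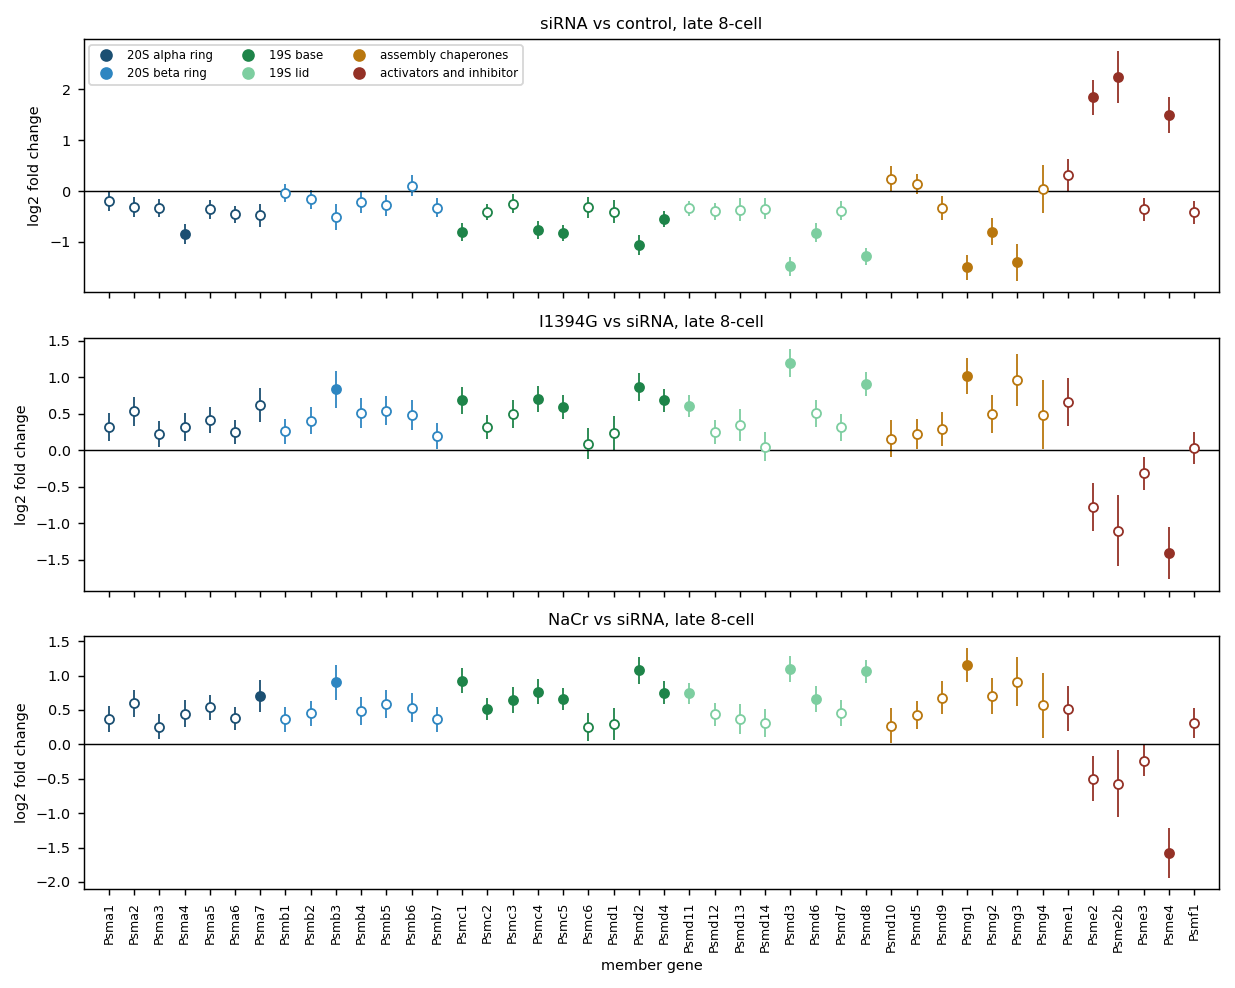
Log2 fold change (edgeR, bars SE) of the core ring, cap, chaperone and activator genes at the late 8-cell stage, by class, with filled points called. The comparisons are siRNA against control, I1394G against siRNA and NaCr against siRNA. Psmd3, Psmd8, Psmd2 and Psmg1 have negative values with siRNA and positive values in both rescue comparisons, and Psme4 the other way round. The 3 comparisons share the siRNA libraries.

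Apart from Psmg3, already given, the called falls were largest among genes with 1 promoter window for 3 chaperone and cap genes, whose windows are printed in the same way: Psmg1 (chr16:95990911-95991210, minus strand), Psmd8 (chr7:29180624-29180923, minus strand) and Psmd2 (chr16:20651402-20651701, plus strand), in GRCm38.p6.
Psmg1: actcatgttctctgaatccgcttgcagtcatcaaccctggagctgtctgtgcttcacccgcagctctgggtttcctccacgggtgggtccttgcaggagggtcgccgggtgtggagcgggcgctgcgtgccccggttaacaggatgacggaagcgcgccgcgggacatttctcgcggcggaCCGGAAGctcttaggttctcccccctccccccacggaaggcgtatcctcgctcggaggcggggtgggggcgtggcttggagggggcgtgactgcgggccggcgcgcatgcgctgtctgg
Psmd8: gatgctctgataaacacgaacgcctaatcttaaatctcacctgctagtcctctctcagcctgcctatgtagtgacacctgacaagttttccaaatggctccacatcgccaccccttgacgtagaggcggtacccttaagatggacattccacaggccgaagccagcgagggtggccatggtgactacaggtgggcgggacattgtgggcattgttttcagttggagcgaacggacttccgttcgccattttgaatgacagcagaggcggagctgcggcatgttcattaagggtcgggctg
Psmd2: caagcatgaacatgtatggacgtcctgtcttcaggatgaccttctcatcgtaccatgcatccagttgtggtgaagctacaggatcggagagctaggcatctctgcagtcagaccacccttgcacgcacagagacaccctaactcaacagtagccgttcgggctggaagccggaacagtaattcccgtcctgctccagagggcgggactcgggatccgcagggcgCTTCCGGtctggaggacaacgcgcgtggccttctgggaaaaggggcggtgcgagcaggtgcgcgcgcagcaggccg
The ETS core in capitals was present in the windows of Psmg1 and Psmd2 and was not found in that of Psmd8.

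Of the 4 proteasome genes called higher with siRNA at the late 8-cell stage, 3 belong to the activators. Psme2, a PA28 subunit that interferon is known to induce, had 36.1 and 60.1 CPM with siRNA and 12.6 and 14.5 in the controls (log2 fold change 1.84 ± 0.34 (SE), edgeR adjusted p = 0.000768). Psme2b, its near copy, had 7.17 and 13.0 against 2.10 and 2.21 CPM (2.24, adjusted p = 0.00374), a call lost without replicate 2 of the siRNA group (range 1.72 to 2.58). Both siRNA libraries were above both controls for these genes, and reads shared between the copies cannot be told apart. Psme4 had 352 and 119.8 CPM with siRNA and 90.7 and 75.7 in the controls (1.49, adjusted p = 0.00485). That value rests on replicate 1 of the siRNA group: without it the change was 0.52 and not called, and the call was also lost without replicate 2 of the controls (range 0.52 to 2.07). Psme1 (0.31, adjusted p = 0.516), Psme3 (-0.36, adjusted p = 0.245) and Psmf1 (-0.42, adjusted p = 0.158) were not called.

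The siRNA effect differed between the 4 stages for 12 of the 50 in a joint edgeR test of the stage interaction, where 16.3% of all genes were called. They were Psmd10, Psmc3, Psmc1, Psmd8, Psmd2, Psmd3, Psmg2, Psme2, Psmc5, Psmd6, Psmg1 and Psmc4. For Psmd2 the change was -0.25 at the late 2-cell, 0.15 at the 4-cell, 0.35 at the early 8-cell and -1.05 at the late 8-cell stage. Psmd3, in the same order, had -0.11, -0.71, -0.87 and -1.48, and Psmc3 had 0.04, 0.86, 1.01 and -0.25. The number called in the joint test was higher without replicate 1 of the 4-cell controls and lower without either of the late 8-cell controls. Shares of all genes called in those fits are not given here, so this dependence cannot be read as particular to proteasome genes.

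Both rescue groups were compared with the same 2 siRNA libraries, so their values are given side by side and are not independent. With I1394G 10 of the 50 were higher and 1 was lower than with siRNA alone, where 10.8% of all genes were called (6.19% higher and 4.58% lower). With NaCr 15 were higher and 1 was lower, where 15.3% of all genes were called (8.77% higher and 6.57% lower). The medians over the 50 were 0.45 and 0.52, and over all genes -0.07 and -0.13. With library totals the counts were 2 higher and 3 lower for I1394G (13% of all genes called, 2.08% higher and 10.9% lower) and 4 higher and 3 lower for NaCr (19.5% called, 2.95% higher and 16.6% lower), so the call of most of these genes depends on the scaling. Of the 50, 44 and 45 lay above the all-gene median, which again no scaling can alter much.

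Of the cap and chaperone genes that fell most with siRNA, Psmd8, Psmd3, Psmd2 and Psmg1 were called higher in both rescue groups. They were picked by low values in the same siRNA libraries, so part of these rises may follow from that choice. Psmg3 also fell and was not called in either rescue group. It had 76.3 and 63.4 CPM with I1394G and 63.9 and 71.1 with NaCr, against 15.7 and 53.6 with siRNA. Psmd8 had 729 and 715 CPM with I1394G and 824 and 778 with NaCr, against 390.3 and 378 with siRNA alone (log2 fold changes 0.91 and 1.06, edgeR adjusted p = 0.00279 and 0.000539). Psmd3 had 164 and 173 with I1394G and 134 and 182 with NaCr (1.19 and 1.10, adjusted p = 0.00116 and 0.000985), and Psmd2 had 498 and 459 and 560.5 and 547 (0.86 and 1.08, adjusted p = 0.00954 and 0.0015). All rescue libraries lay above both siRNA libraries for these genes. Psmg1 had 96.4 and 99.7 with I1394G and 112 and 105 with NaCr (1.02 and 1.16, adjusted p = 0.0132 and 0.00414). With library totals Psmd3 (0.82) and Psmd8 (0.54) were still called for I1394G, and Psmd2 (0.61), Psmd3 (0.63), Psmd8 (0.60) and Psmg1 (0.69) for NaCr.

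Further called rises over siRNA were seen for Psmb3, a beta subunit (0.83 with I1394G and 0.90 with NaCr), the ATPases Psmc1 (0.69 and 0.93), Psmc4 (0.70 and 0.77) and Psmc5 (0.59 and 0.66), Psmd4 (0.68 and 0.75) and the lid subunit Psmd11 (0.61 and 0.74). NaCr alone had called rises of Psmc3ip (0.85), Psma7 (0.71), Psmd6 (0.66), Psmc3 (0.65) and Psmc2 (0.52); whether these differed from I1394G was tested directly, and none was called. Psme4 was lower in both, at 86.1 and 89.9 CPM with I1394G and 94.4 and 62.2 with NaCr (-1.41 and -1.58, adjusted p = 0.016 and 0.00612), and both calls were lost without replicate 1 of the siRNA group; that for I1394G was also lost without either of its own libraries, and that for NaCr without its replicate 2 (ranges -1.99 to -0.44 and -2.15 to -0.60). Without single libraries the number of calls fell to 2 for I1394G (without either of its own libraries; 5 without replicate 1 of the siRNA group) and to 8 and 7 for NaCr (without its replicate 1 or 2). Psmd3 and Psmd8 kept their calls without each library in turn for I1394G, and Psmc1, Psmd2, Psmd3, Psmd8, Psmd11 and Psmg1 for NaCr. Under every other alternative as well, only Psmd3 kept its call for I1394G, and only Psmd2 and Psmd8 for NaCr.

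Against the controls edgeR called 0 of the 50 in the I1394G group (3.17% of all genes) and 0 in the NaCr group (1.57%). At an unadjusted p below 0.05 there were 7 and 9 (2806 and 2234 genes in all). DESeq2 called 2 and 4 of the 50, limma on FPKM 0 and 1, and fits to the libraries of these groups alone 22 and 17. The result thus depends on how the spread is estimated. Shares of all genes called in these other fits are not given here, so their counts cannot be read as particular to proteasome genes. The activator with the lowest adjusted p in both was Psme2 (1.06, adjusted p = 0.0972, and 1.34, adjusted p = 0.0515), with 26.9 and 29.4 CPM for I1394G and 41.0 and 27.5 for NaCr. All 4 rescue libraries lay above both controls, and the NaCr libraries overlapped the siRNA ones (36.1 and 60.1). Psmd3 was at -0.29 and -0.39 relative to the controls (adjusted p = 0.465 and 0.376). Between I1394G and NaCr edgeR and DESeq2 called 0 of the 50 (0% of all genes by edgeR), 0 had an unadjusted p below 0.05, and the median difference was -0.12.

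Immunoproteasome genes were rare transcripts except for Psmb10. Psmb9, the replacement for the catalytic subunit Psmb6, had 9.26 and 5.32 CPM in the late 2-cell controls and 8.90 and 8.52 with siRNA. It had 177 counts in the late 2-cell controls and 0 in the 4-cell controls, at least 80.2-fold lower against a floor of 3 counts over the group. Psmb8, the replacement for Psmb5, had 54 counts and then 0, at least 24.5-fold lower. Both genes thus fell to 0 counts while the constitutive core rose. Psmb10, the replacement for Psmb7, moved the other way, from 6.69 and 5.64 to 46.9 and 47.5 CPM (log2 fold change 2.93 ± 0.43 (SE), edgeR adjusted p = 1.15e-05).

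With siRNA Psmb9 had 40 counts at the 4-cell stage against 0 in the controls, at least 17.8-fold higher; those counts came from libraries with 0.418 and 2.25 CPM, and the edgeR call (adjusted p = 0.0115) was lost without replicate 2 of either group. At the late 8-cell stage Psmb9 had 5.80 and 5.18 CPM in the controls and 0.531 and 5.47 with siRNA, and the groups overlapped. Psmb8 had 112 counts there with siRNA (6 and 106) against 2 in the controls (2 and 0), a ratio of CPM of 74.5 with a 95% counting interval of 20.2 to 623. Nearly all of them came from replicate 2, and the edgeR call (adjusted p = 0.00724) was lost without that library or without replicate 2 of the controls. Psmb10 had 9.03 and 29.0 CPM with siRNA and 29.1 and 33.9 in the controls (-0.66, adjusted p = 0.224). Such intervals cover counting error only.

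Per length, Psmb9 reached 10.6% to 21.7% of the FPKM of Psmb6 in the late 2-cell libraries and at most 0.847% later. Psmb8 reached 3.81% to 14.7% of Psmb5 at the late 2-cell stage and at most 1.41% later, and Psmb10 lay between 0.932% and 10.6% of Psmb7 in all libraries. That highest Psmb10 value is from replicate 2 of the early 8-cell controls, whose FPKM did not match its counts. The next was 10.4%, in replicate 1 of the 4-cell siRNA group. The tissue-specific forms were at the limit of detection: Psma8 had 0 counts in the late 2-cell controls and 53 in the 4-cell controls, at least 13-fold higher, and at most 8.23 CPM in any library. Psmb11 had 0 to 4.38 CPM, and its changes were not called by edgeR in any comparison.

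**Figure D5:**
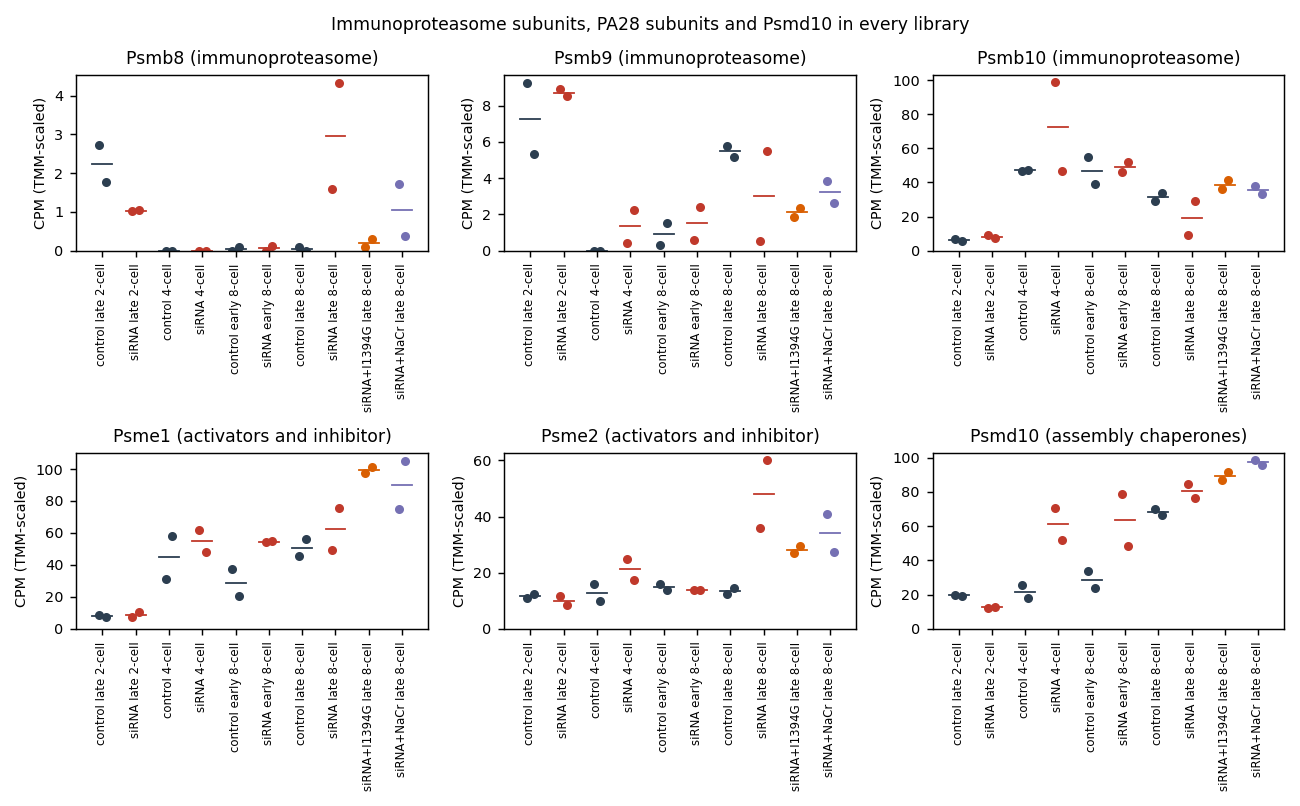
CPM of Psmb8, Psmb9, Psmb10, Psme1, Psme2 and Psmd10 in each library (points) with the group mean (line), by stage and group. Among the controls Psmb8 and Psmb9 are highest at the late 2-cell stage, Psme2 has its highest value (60.1) in a late 8-cell siRNA library, and the single high Psmb8 value among late 8-cell libraries is replicate 2 of the siRNA group (4.33).

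Genes of antigen presentation on class I molecules, which use peptides made by the immunoproteasome, were counted beside these subunits. At the late 8-cell stage 5 of 13 were higher and 1 lower with siRNA, with a median change of 1.26, where 13.6% of all genes were higher and 14.3% lower. With library totals 8 were higher and 1 lower, where 23.6% of all genes were higher and 6.13% lower. Irf1, a transcription factor of the interferon response, had 14.9 and 21.2 CPM with siRNA and 0.513 and 0.110 in the controls (log2 fold change 5.81 ± 0.63 (SE), edgeR adjusted p = 8.85e-06). Its level was higher at the late 2-cell stage, at 48.7 and 42.1 CPM in the controls and 54.6 and 57.9 with siRNA. B2m, the invariant chain of class I molecules, had 182 and 235 against 63.3 and 70.5 CPM (1.64, adjusted p = 2.13e-05). The class I heavy chain H2-K1 was the gene called lower (0 and 0.408 against 6.16 and 4.36 CPM; -3.98, adjusted p = 0.0255), and the heavy chain H2-D1 was at or near 0 in both groups (0 and 0 with siRNA, 0 and 0.0552 in the controls). Both heavy chains were present at the 4-cell stage. H2-K1 had 61.5 and 50.3 CPM with siRNA there and 22.7 and 11.0 in the controls, and H2-D1 had 81.6 and 56.7 against 25.1 and 15.5. Of the 13 genes, 3 were called higher and 0 lower at that stage, where 7.77% of all genes were higher and 7.25% lower. Markers of blood and immune cells (10 genes) summed to 25.5 to 67.2 CPM with siRNA and 14.1 to 17.9 in the controls, most of it Cd74 (20.4 and 61.3 CPM with siRNA, 12.2 and 15.2 in the controls), with the leukocyte marker Ptprc at 0 and 0.0408 in the siRNA libraries; the sums were 44.1 to 61.3 with I1394G and 45.5 to 59.2 with NaCr, and their part in these results was not tested.

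Partners of the proteasome, such as shuttle factors, cap-bound enzymes and the regulator Nfe2l1, were counted from a list of 37 genes of which 32 were in the table. From the late 2-cell to the 4-cell controls 14 of 32 rose and 10 fell, where 27% of all genes rose and 34.2% fell. Pomp, the maturation factor of the core, had 37.1 and 42.5 and then 482 and 378 CPM (3.43, adjusted p = 2.36e-10), and Sem1, a lid component outside the naming rule, rose by 3.94 (adjusted p = 3.72e-07). Usp14, a deubiquitinase of the cap, rose by 4.1 (adjusted p = 1.35e-10). These 3 partners, picked from the 14 that rose, did so between the same stages as the subunits they work with. Other listed genes went the other way. Nfe2l1 had 75.8 and 91.2 and then 33.6 and 37.1 CPM. Ddi2 had 22.4 and 27.8 and then 3.72 and 9.90 CPM, and Ngly1 had 66.1 and 64.0 and then 1.76 and 2.29 CPM.

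With siRNA at the late 8-cell stage 13 of the 32 were lower and 2 higher, with a median of -0.46, where 14.3% of all genes were lower and 13.6% higher. With library totals 3 were lower and 5 higher, with a median of 0.02, where 6.13% of all genes were lower and 23.6% higher. Adrm1, a ubiquitin receptor of the cap, had 268 and 289.7 against 583 and 559 CPM (-1.03, adjusted p = 0.000513; -0.55 with library totals). Both siRNA libraries were below both controls for this gene, and Adrm1 was at 467 and 445 CPM with I1394G and 520.1 and 575 with NaCr. With I1394G 6 of the 32 were higher and 1 lower than with siRNA (6.19% and 4.58% of all genes), and with NaCr 7 higher and 2 lower (8.77% and 6.57% of all genes). The 10 embryo markers summed to 9369 to 10216 CPM in the late 8-cell controls and 4234 to 5106 with siRNA. With I1394G they summed to 9552 to 10152 CPM and with NaCr to 11289 to 12551. Most of each sum was Dppa3, with 7264 and 6734 CPM in these controls and 3010 and 3601 with siRNA. Of the 10, 8 were called lower with siRNA (14.3% of all genes). Under TMM scaling the summed cap CPM was also lower with siRNA than in the other late 8-cell groups. At the 4-cell stage the markers summed to 7040 to 9263 CPM with siRNA and 11826 to 13390 in the controls. The cap sums there were 8334 and 8774 against 8236 and 7246 CPM. The part of the markers in the result was not tested.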

How the data were processed

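The deposited tables hold gene-level read counts and FPKM for 20 libraries. Per the submitters' processing notes the authors used bcl2fastq 2.20.0.422, cutadapt 4.1, HISAT2 2.2.1 and Cufflinks 2.2 with mm9; the counting program is not given in the sources used here. The counts were deposited as whole numbers without normalization, and FPKM values were deposited by the authors. Strand use in counting is not stated. In 1 library, replicate 2 of the early 8-cell controls, FPKM did not match the counts. Both were taken on the log2 scale as deviations from the mean of the other 19 libraries. These deviations correlated at 0.344 over 7134 genes, against at least 0.967 in the other 19. The levels themselves correlated at 0.769 in this library and at 0.870 to 0.905 in the others. FPKM therefore serves only to set levels of different genes side by side and in alternatives. Groups were taken from the labels, which give 1 more stage than the series' design text counts.

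Counts of all 20 libraries were fitted in edgeR 4.0.16 (R 4.3.3) with 1 coefficient per group, TMM scaling, filterByExpr and the two-sided quasi-likelihood F test, Benjamini-Hochberg adjusted over 16603 genes and called below 0.05. The SE is the log2 fold change over the square root of F. Alternatives were DESeq2 1.42.0, its size factors, no filter, limma 3.58.1 on log2(FPKM + 1) or log2(FPKM + 0.1), fits to single comparisons, a replicate block and each library left out; library totals without scaling factors were added after seeing the data. The pipeline was tested on simulated data. Genes named beyond the class rules are those called with at least 10 CPM, at most 10 a comparison by adjusted p, and the largest change in each class; some others are named after their values were seen. The members and lists were chosen with earlier results of these data known. Comparisons within a stage share libraries. Counts set the precision: 3202332 to 24785201 per library. Promoter windows came from RefSeq (GRCm38.p6).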

Additional observations from a re-analysis of the deposited data

Results flagged for a closer look

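For 12 of the 50 proteasome genes the effect of P300 siRNA differed between the stages in edgeR's joint test of the stage interaction (2 libraries a group, 4 stages). The same test called 16.3% of all genes. The adjusted p was 0.0041 for Psmd10, 0.00803 for Psmc3, 0.00833 for Psmc1, 0.00856 for Psmd8, 0.00913 for Psmd2, 0.0123 for Psmd3, 0.0127 for Psmg2, 0.0178 for Psme2, 0.026 for Psmc5, 0.0324 for Psmd6, 0.0428 for Psmg1 and 0.0479 for Psmc4. The interaction covers unlike patterns. Psmd10, the base chaperone, went from -0.64 at the late 2-cell stage to 1.49, 1.16 and 0.23 at the later stages. Psmg2, a core chaperone, was at 1.0 at the 4-cell and -0.80 at the late 8-cell stage. The ATPase Psmc1 was at 0.50 and -0.81, and the activator Psme2 at 0.71 and 1.84.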

How the results depend on the processing

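Across alternatives, 119 called changes of single genes were recomputed 1545 times: 1269 kept their direction and call, 276 kept the direction only and 0 reversed. Of 181 recomputed counts of called proteasome genes 125 stayed within 1.5 times of the reported count. The others follow, with the reported count first. The cause was not tested unless the alternative itself holds fewer libraries. Shares of all genes called are not given beside these counts, which therefore show only how the counts depend on the processing. For siRNA against control the count at the late 2-cell stage (0) was 1 with DESeq2, 1 with limma on log2(FPKM + 1) without replicate 2 of the early 8-cell controls (limma on the reduced table), and 3 in a fit to those libraries alone. At the 4-cell stage (6) it was 15 with library totals, 10 with limma on log2(FPKM + 1) or + 0.1, 15 with limma on the reduced table, and 0 in a fit to those libraries alone. At the early 8-cell stage (4) it was 13 with library totals, 1 with limma at either pseudocount and 2 with limma on the reduced table. At the late 8-cell stage (16) it was 10 with limma at either pseudocount. For I1394G against siRNA (11) it was 5 with library totals, 5 with limma at either pseudocount, 7 with limma on the reduced table and 5 in a fit to those libraries alone. For NaCr against siRNA (16) these were 7 with library totals, 6 and 5 with limma, 10 with limma on the reduced table and 8 alone. Against controls, I1394G (0) gave 2 with DESeq2, 1 with no filter, 1 with limma on the reduced table and 22 in a fit to those libraries alone, and NaCr (0) gave 1 with DESeq2 size factors, 1 with library totals, 4 with DESeq2, 1 with no filter, 1 with limma, 2 with limma on the reduced table and 17 alone. From the 4-cell to the early 8-cell controls (0) DESeq2 and no filter gave 1 each. The joint test (12) gave 19 with no filter and 6 with limma at either pseudocount, and 8 from only those libraries.

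Leaving out single libraries gave 43 to 44 calls from the late 2-cell to the 4-cell controls (44 reported), 0 to 1 from the 4-cell to the early 8-cell controls, 13 to 21 from the early to the late 8-cell controls (22), 1 to 14 at the 4-cell, 2 to 4 at the early 8-cell and 10 to 17 at the late 8-cell stage for siRNA, 2 to 14 for I1394G and 7 to 19 for NaCr against siRNA, and 5 to 24 for the joint test. Shares of all genes called are not given beside these counts either, so they show only how the counts depend on single libraries. Where 1 library of a group was left, it was assumed to vary like the other groups. The labels do not say that replicate numbers pair libraries, and same-numbered libraries had correlated deviations of only -0.062 to 0.225; with a replicate block the count was 18 for siRNA at the late 8-cell stage, 23 from the early to the late 8-cell controls, 10 for I1394G against siRNA and 14 for the joint test, and no count moved by over 1.5 times.

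Class sums from the late 2-cell to the 4-cell controls, on the log2 scale, moved from 3.41 to 3.01 (alpha ring), 3.13 to 2.73 (beta ring; 2.72 with FPKM), 1.61 to 1.21 (immunoproteasome; 0.867 with FPKM), 2.57 to 2.17 (base), 2.33 to 1.93 (lid; 2.09 with DESeq2 size factors, 2.03 with FPKM), -1.06 to -1.46 (activators) and 0.62 to 0.22 (chaperones) with library totals; without Psmd1, Psmd2 and Psmd4 the base gave 3.45. With siRNA at the late 8-cell stage the alpha sum reversed from -0.40 to 0.0745 with library totals and 0.0703 with FPKM (-0.26 with DESeq2 size factors), the beta sum from -0.19 to 0.293 and 0.274, and the chaperone sum from -0.46 to 0.0222 with library totals (-0.31 with DESeq2 size factors, -0.13 with FPKM). The base went from -0.59 to -0.11 with both, the lid from -0.57 to -0.0924 and -0.10, and the activators from 0.52 to 0.995 and 0.989. Depth limits Psmb8, Psmb9, Psma8 and Psmb11, which have few counts.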
